A study of Mus musculus with 6 samples.

Results

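The inhibitory co-receptors of B cells are surface proteins that dampen signalling by the antigen receptor, and 10 genes of this system were followed here: 9 receptors (Cd22, Siglecg, Cd72, Fcgr2b, Pirb, Lair1, Cd5, Btla and Ceacam1) and the phosphatase gene Ptpn6. They were taken by symbol from the 23420 genes listed for each library. Of the 10, 9 were found under their own symbol, and Pirb was found as Lilrb3, a synonym that belongs to Pirb alone in the RefSeq gene table. RNA sequencing was done on germinal centre B cells of the spleen, enriched with beads and sorted by FACS, from mice given the hapten-carrier antigen NP-KLH intraperitoneally and studied on day 10. The KO group had the genotype BASP1 fl/fl hCD20TamCre+/- and the WT group BASP1 +/+ hCD20TamCre+/-, with 3 libraries each, numbered 1 to 3. All mice of both groups thus carried the Cre transgene, a tamoxifen-activated recombinase named for the human B cell gene CD20, and all were given tamoxifen (1 mg) at day 5, again at day 7 and at day 9. The labels give neither the age of the mice nor whether a library came from 1 mouse or several. The p-values therefore rest on the spread between libraries, which may be technical and was largely pooled over genes.

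An inhibitory co-receptor carries in its cytoplasmic tail an immunoreceptor tyrosine-based inhibitory motif (ITIM) or a related tyrosine motif. When the antigen receptor is engaged, Src-family kinases such as LYN phosphorylate that tyrosine, and the phosphorylated motif recruits the tyrosine phosphatase SHP-1, the product of Ptpn6, or the inositol phosphatase SHIP-1. The recruited phosphatase removes the phosphates on which activation depends, so that the strength of a B cell's response reflects the balance of both kinds of signal. In germinal centres, where B cells compete for antigen, this dampening is known to be strong.

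The values were on the log2 CPM scale (CPM, reads of a gene in a library scaled to a common total), on which the submitters had already put all libraries on 1 scale. For every gene the sum of the KO and the WT value of the same replicate number was equal over the 3 numbers, to within 0.001. KO and WT therefore have nearly equal SDs by construction, and what is free for each gene is its level and 3 paired differences. For the same reason, KO and WT libraries fail to overlap exactly when the 3 paired differences share a sign. A lack of overlap thus adds nothing beyond those signs. Listed values summed to between 997617 and 1000513 CPM per library; the read depth is unknown. Basp1, the targeted gene, stood at 3.27, 2.86 and 3.23 log2 CPM in KO libraries 1, 2 and 3, against 5.49, 5.89 and 5.53 in WT libraries. Those groups were far apart, by -2.51 ± 0.45 (SD of the 3 paired differences). Markers of B cells were present in every library, and of 9 germinal centre markers all 9 were tested, summing to 4216 to 4370 CPM in KO and 4360 to 4518 CPM in WT libraries. Of 10 T cell markers 8 were under 1 CPM on average and the T cell receptor subunit gene Cd3e was at the most common value listed, which is far under 1 CPM, in all 6 libraries, while the kinase gene Lck supplied nearly all of their sum.

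In Basp1-deficient germinal centre B cells none of the co-receptor genes passed the test at a false discovery rate (FDR) of 5%. Of the 10 genes, 8 had a mean of at least 1 CPM and were tested, 3 of them higher and 5 lower in KO, and Cd72 came closest. By limma with the replicate number as a block, 0.266% of all 10133 tested genes passed 5% FDR, so that 0 of 8 is close to that background. At an unadjusted p under 0.05 there was 1 of the 8, Cd72, against 8.82% of all tested genes. In 5 of the 8 the KO and WT libraries did not overlap (3 with all KO above all WT, 2 with all KO below all WT). That is, the paired differences of each of these genes shared a sign. Among all tested genes 27.7% did not overlap, 15.2% with KO above and 12.5% with KO below. The median difference of the 8 was -0.08 on the log2 scale, beside 0.0037 over all tested genes. By pair this median was -0.14, 0.002 and 0.059 in pairs 1, 2 and 3, and without pair 1 it was 0.0305, so that its sign rested on pair 1. Their median size regardless of direction was 0.138, beside 0.0867 over all tested genes.

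**Figure D1:**
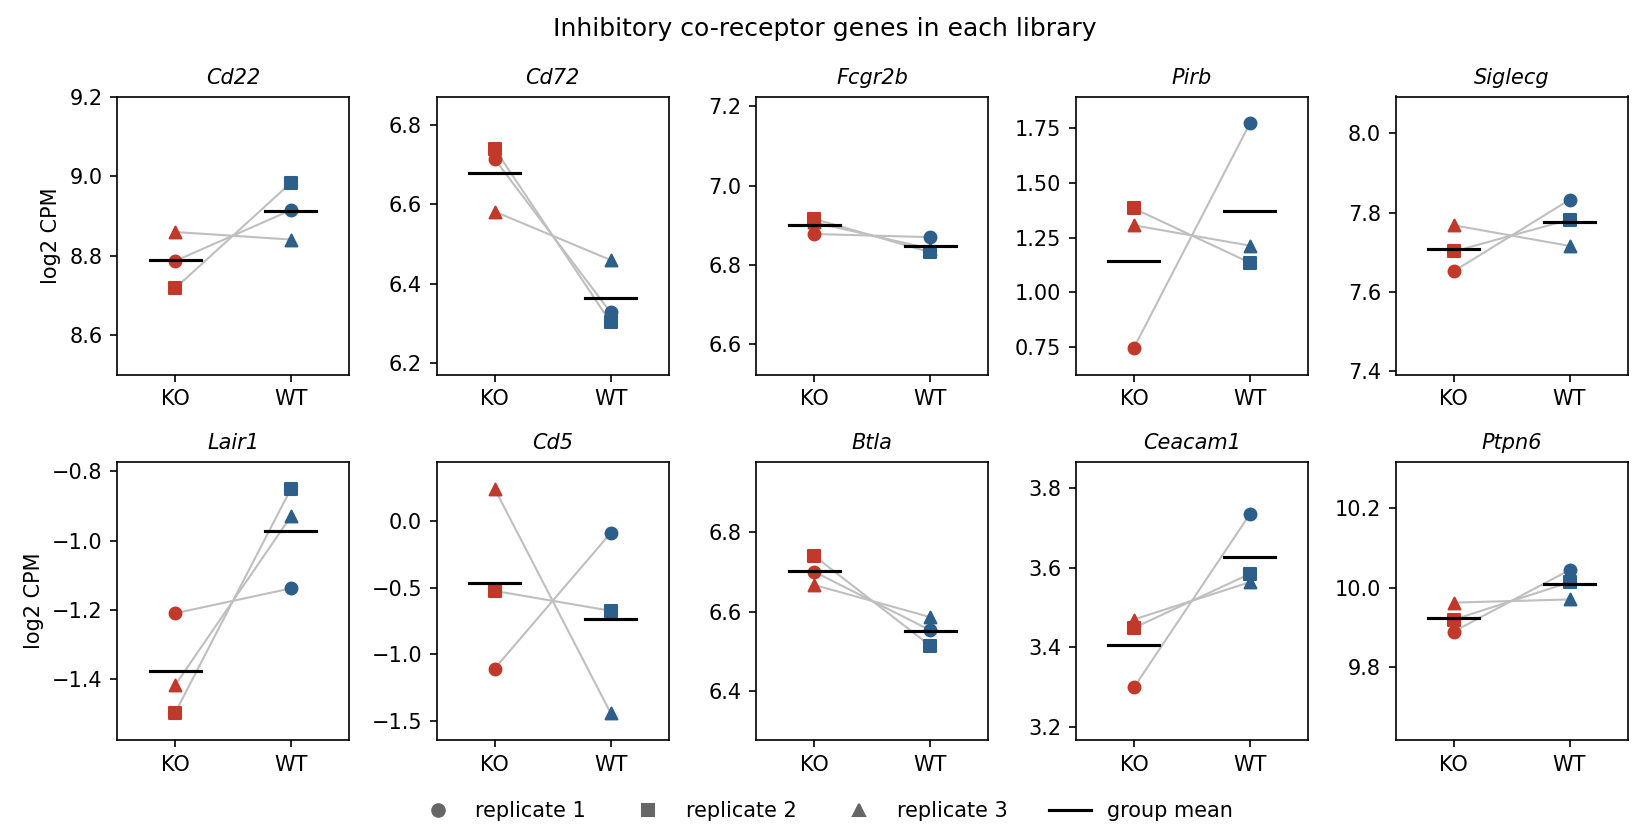
Log2 CPM of the 10 co-receptor genes in each library, KO left and WT right, with a grey line joining libraries of the same replicate number and a black bar at the group mean; the vertical axes differ in range. All KO libraries lie above all WT libraries for Cd72, Btla and Fcgr2b, and below them for Ptpn6, Ceacam1 and Lair1.

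Cd72 encodes a C-type lectin-like receptor of B cells whose ITIM recruits SHP-1 and whose known ligand is semaphorin 4D. Its level was 6.71, 6.74 and 6.58 log2 CPM in KO libraries 1, 2 and 3, against 6.33, 6.30 and 6.46 log2 CPM in WT libraries 1, 2 and 3. All 3 KO libraries were higher than all 3 WT libraries, and pair 3 was the closest. The group means were 102 CPM in KO and 82.3 CPM in WT (geometric means, n = 3 each). The difference was 0.32 ± 0.17 on the log2 scale (SD of 3 paired differences), a ratio of 1.24 with a 95% interval from 1.11 to 1.40. By limma's moderated test it had an adjusted p of 0.0698 over all tested genes, rank 48 of 10133 by p, and so it did not pass. Of all tested genes 7.67% differed by more in size.

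The Cd72 value has further limits. The call depended on the libraries: the adjusted p was 0.0112 without pair 3 (difference 0.41), 0.305 without pair 1 (0.28) and 1 without pair 2 (0.25). With no filter on low values, which raised the number of genes tested to 14902, it was 0.0459, and over all alternatives it ran from 0.0112 to 1. Cd72 spans bases 43446462 to 43454628 of chromosome 4, minus strand (GENCODE M21, build GRCm38), where 1423 of its 3422 exonic bases are shared with exons of Tesk1, a kinase gene on the opposite strand. No source used here says whether counting used strand, so reads from the shared bases may belong to either gene. Tesk1 itself stood at 2.04, 1.71 and 1.81 log2 CPM in KO, against 1.49, 1.83 and 1.73 in WT. Its listed level was thus far lower than that of Cd72 and overlapped between the groups. That level does not show which gene the reads of the shared bases came from.

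Btla encodes an immunoglobulin-family receptor that binds the TNF-receptor family member HVEM and recruits SHP-1 and SHP-2. It was at 6.70, 6.74 and 6.67 log2 CPM in KO, against 6.55, 6.52 and 6.59 in WT. The KO libraries were the higher ones without overlap, by 0.15 ± 0.07 (ratio 1.11, 95% interval 0.992 to 1.24; limma adjusted p = 0.628). Fcgr2b, the inhibitory Fc receptor that senses IgG-bound antigen and acts mainly through SHIP-1, was at 6.88, 6.92 and 6.91 log2 CPM in KO and at 6.87, 6.83 and 6.84 in WT. These groups did not overlap either, yet they differed by only 0.05 ± 0.04 (ratio 1.04, 95% interval 0.928 to 1.16; adjusted p = 0.918). Reads of Fcgr2b can be shared with the related activating receptor gene Fcgr3, which averaged -3.68 log2 CPM in KO and -2.95 in WT. Fcgr4, a further Fc receptor gene looked up, averaged 0.35 in KO and 1.06 in WT (-0.71 ± 0.84, limma adjusted p = 0.472). Its groups overlapped.

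The promoters of Cd72, Btla and Ptpn6 are shown because Cd72 and Btla were the receptor genes with the higher means in KO by more than 0.1 and no overlap between the groups, and Ptpn6 is the shared phosphatase, with the lower mean in KO. Each run gives the 250 bases before the RefSeq transcription start on the strand of the gene (table of build GRCm38.p6), at chr4:43454627-43454876 (minus strand) for Cd72, chr16:45224087-45224336 (plus strand) for Btla and chr6:124738710-124738959 (minus strand) for Ptpn6. Capitals mark GAGGAA or its reverse complement, the core that the B cell factor PU.1 is known to bind.
Cd72: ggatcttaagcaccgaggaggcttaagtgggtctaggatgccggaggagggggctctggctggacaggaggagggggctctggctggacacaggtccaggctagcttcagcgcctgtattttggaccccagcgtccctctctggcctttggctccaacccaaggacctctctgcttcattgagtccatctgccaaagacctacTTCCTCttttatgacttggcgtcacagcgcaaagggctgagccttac
Btla: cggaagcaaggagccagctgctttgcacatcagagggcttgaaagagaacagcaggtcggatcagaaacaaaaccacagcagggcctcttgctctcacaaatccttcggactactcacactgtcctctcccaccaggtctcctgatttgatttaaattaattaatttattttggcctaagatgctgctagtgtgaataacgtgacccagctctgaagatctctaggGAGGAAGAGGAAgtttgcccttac
Ptpn6: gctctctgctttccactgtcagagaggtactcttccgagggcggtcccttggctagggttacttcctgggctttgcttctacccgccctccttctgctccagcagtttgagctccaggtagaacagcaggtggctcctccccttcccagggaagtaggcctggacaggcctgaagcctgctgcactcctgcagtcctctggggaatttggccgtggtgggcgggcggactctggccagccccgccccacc

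The core occurred once before Cd72, with its first base at position -47 from the start and in reverse orientation, and in 2 adjoining copies before Btla, at -24 and -18. It was not in the 250 bases before Ptpn6. Over the 11 RefSeq starts of the 10 genes it was present at 7 (those of Btla, Cd5, Cd72, Ceacam1, Lair1 and Pirb and the upstream start of Siglecg), against 23.3% of the 32851 starts in the table. Further motifs were searched on both strands in the same windows. The AP-1 motif TGANTCA was at 0 of the 11 starts (6.75% of all starts), the T-box motif GGTGTGA at 1, that of Pirb (3.33%), and the GC box GGGGCGG at 1, that of Ptpn6 (21.0%). The E-boxes CACGTG and CAGGTG were at 1 and 4 starts (6.02% and 17.2% of all starts). The motifs were chosen with the expression results known, no match of one motif overlapped a match of another at these 11 starts, and a match only describes the sequence.

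The Siglec receptors had slightly lower means in KO. CD22, the defining Siglec of B cells, binds sialic acid on the B cell's own glycoproteins and holds SHP-1 near the antigen receptor. Its gene was at 8.79, 8.72 and 8.86 log2 CPM in KO, against 8.92, 8.98 and 8.84 in WT. KO was the lower one in pairs 1 and 2, while pair 3 was nearly level, and the groups overlapped. The difference was -0.13 ± 0.14 (ratio 0.917, 95% interval 0.835 to 1.01; limma adjusted p = 0.626). Siglecg, which encodes the Siglec known for restraining B-1 cells, was at 7.65, 7.70 and 7.77 log2 CPM in KO and at 7.83, 7.78 and 7.72 in WT. It likewise overlapped, with a difference of -0.07 ± 0.12 (ratio 0.953, 95% interval 0.860 to 1.06; adjusted p = 0.868). Both sizes depended on the pairs: Cd22 differed by -0.0545 without pair 2 and by -0.20 without pair 3, and Siglecg by -0.014 without pair 1 and by -0.13 without pair 3. In bulk libraries such as these, a smaller number of cells that express a gene and less of its RNA per cell cannot be told apart.

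Ptpn6, the most abundant of the 10, was at 9.89, 9.92 and 9.96 log2 CPM in KO libraries, against 10.04, 10.01 and 9.97 log2 CPM in WT libraries. The KO libraries lay below the WT libraries without overlap, although pair 3 differed by only -0.008. The means were 971 CPM in KO and 1030 CPM in WT, a difference of -0.09 ± 0.07 (ratio 0.942, 95% interval 0.867 to 1.02; limma adjusted p = 0.766). Without pair 1 it was -0.051.

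Ceacam1, a homophilic adhesion receptor with ITIMs, was at 3.30, 3.45 and 3.47 log2 CPM in KO, against 3.74, 3.58 and 3.56 in WT. It was lower in all 3 KO libraries, by -0.22 ± 0.19 (ratio 0.857, 95% interval 0.699 to 1.05; limma adjusted p = 0.743), and pair 1 differed most. Without pair 1 the difference was -0.115. Its close relative Ceacam2 was at the most common value listed in all 6 libraries. Pirb, the paired immunoglobulin-like receptor that binds MHC class I, was at 0.75, 1.38 and 1.31 log2 CPM in KO and at 1.77, 1.14 and 1.21 in WT. Pair 1 was lower in KO and pairs 2 and 3 were higher, so its mean difference of -0.23 ± 0.70 was smaller than the spread between pairs (95% interval of the ratio 0.586 to 1.24; adjusted p = 0.887). It turned to 0.17 without pair 1. Reads of Pirb can also be shared with the activating Pira genes and Lilra6, of which 6 of the 7 looked up stayed within 1 log2 unit of the most common value listed in all libraries.

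Lair1 and Cd5 averaged under 1 CPM and were not part of the test. Lair1, a collagen receptor, was at -1.21, -1.50 and -1.42 log2 CPM in KO, against -1.14, -0.85 and -0.93 in WT. It was lower in all 3 KO libraries by -0.40 ± 0.30. In the fit without a filter its 95% interval ran from -1.50 to 0.69 on the log2 scale (limma adjusted p = 0.897). Cd5, which encodes a receptor of T cells and B-1a cells, was at -1.11, -0.52 and 0.24 log2 CPM in KO, against -0.09, -0.67 and -1.44 in WT. Its paired differences ran from -1.02 in pair 1 to 1.68 in pair 3, so no direction was shared (mean 0.27 ± 1.35; adjusted p = 0.914 without a filter).

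Lair1, Cd5 and Pirb are also expressed by T cells or myeloid cells. The 10 T cell markers together summed to 226 to 241 CPM in KO and 192 to 206 CPM in WT libraries, nearly all of it Lck. Lck was at 7.88, 7.78 and 7.84 log2 CPM in KO and at 7.55, 7.65 and 7.60 in WT (difference 0.23 ± 0.10, limma adjusted p = 0.212). The other T cell markers were mixed. Cd28 (2.59, all KO above all WT), Cd3g, Cd8b1 and Lat had higher means in KO. Cd3d (-1.36), Cd4, Cd8a and Thy1 had lower means, and Cd3e was level. All of these except Lat averaged under 1 CPM, so the sum mainly describes Lck. The 11 myeloid markers summed to 13.8 to 20.0 CPM in KO and 15.8 to 23.2 CPM in WT libraries, and 3 of them were at 1 CPM or more on average. The highest was Cd68, at 2.97 log2 CPM in both group means. Lyz2, a lysozyme gene of myeloid cells, was at 1.04, 1.04 and 0.24 log2 CPM in KO, against 1.17, 1.17 and 1.97 in WT (-0.66 ± 0.92, limma adjusted p = 0.464). For Lyz2, and for C1qa, C1qb and Fcer1g, which averaged under 1 CPM, all KO libraries were below all WT libraries, as for Lair1. The other myeloid markers all overlapped between the groups. Among them C1qc (1.115), Csf1r (0.405) and Mpeg1 (0.21) had higher means in KO, Cd14, Itgam and Adgre1 had lower means, and Cd68 was level. The part of such cells in the Lair1, Cd5 and Pirb values was not tested.

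**Figure D2:**
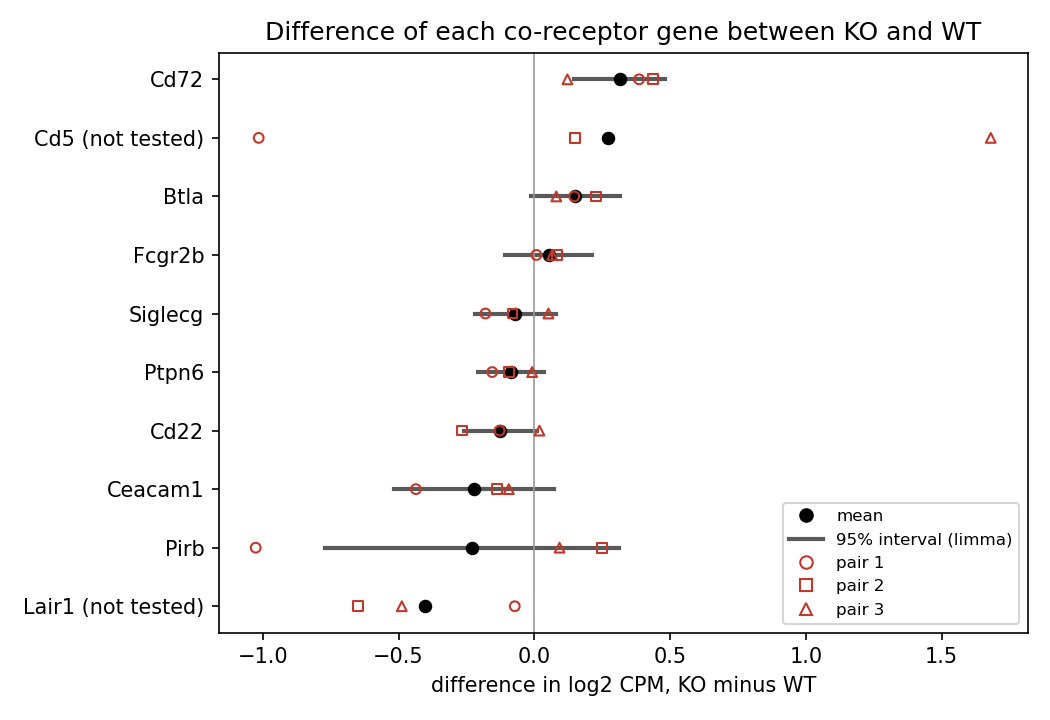
Difference in log2 CPM, KO minus WT, for each co-receptor gene: filled points are means and open symbols the 3 replicate pairs. Lines give the moderated 95% intervals from limma for the 8 tested genes, with a variance largely pooled over genes. The interval of Cd72 lies above 0, while those of the other 7 tested genes include 0, and the pairs of Cd5 and Pirb fall on both sides.

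Set per kilobase of annotated exon (all exons of a gene in GENCODE M21 merged), the 10 genes spanned more than 12 log2 units and had the same order in KO and WT. Ptpn6 was at 8.44 ± 0.04 log2 CPM per kb in KO and 8.52 ± 0.04 in WT (SD, n = 3 each). Cd22 followed at 6.45 ± 0.07 in KO and 6.58 ± 0.07 in WT, and Siglecg at 5.44 ± 0.06 in KO and 5.51 ± 0.06 in WT. These 3 levels stood apart from each other in both groups.

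Btla, Cd72 and Fcgr2b formed the next steps on the scale per kilobase. Btla was at 4.94 ± 0.04 log2 CPM per kb in KO and 4.79 ± 0.04 in WT, Cd72 at 4.90 ± 0.08 in KO and 4.59 ± 0.08 in WT, and Fcgr2b at 4.37 ± 0.02 in KO and 4.31 ± 0.02 in WT. Btla and Cd72 overlapped in KO, where their means were 0.035 apart, and did not overlap in WT, where they were 0.199 apart; this contrast was not tested. Ceacam1 came more than 3 log2 units lower, at 0.87 in KO and 1.09 in WT. The lowest were Pirb (-1.02 in KO, -0.79 in WT), Cd5 (-2.76 in KO, -3.04 in WT) and Lair1 (-4.28 in KO, -3.88 in WT). No other neighbours in this order overlapped over the libraries of either group. The exon lengths are those of the annotation, and the transcripts in use in these cells may be shorter.

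**Figure D3:**
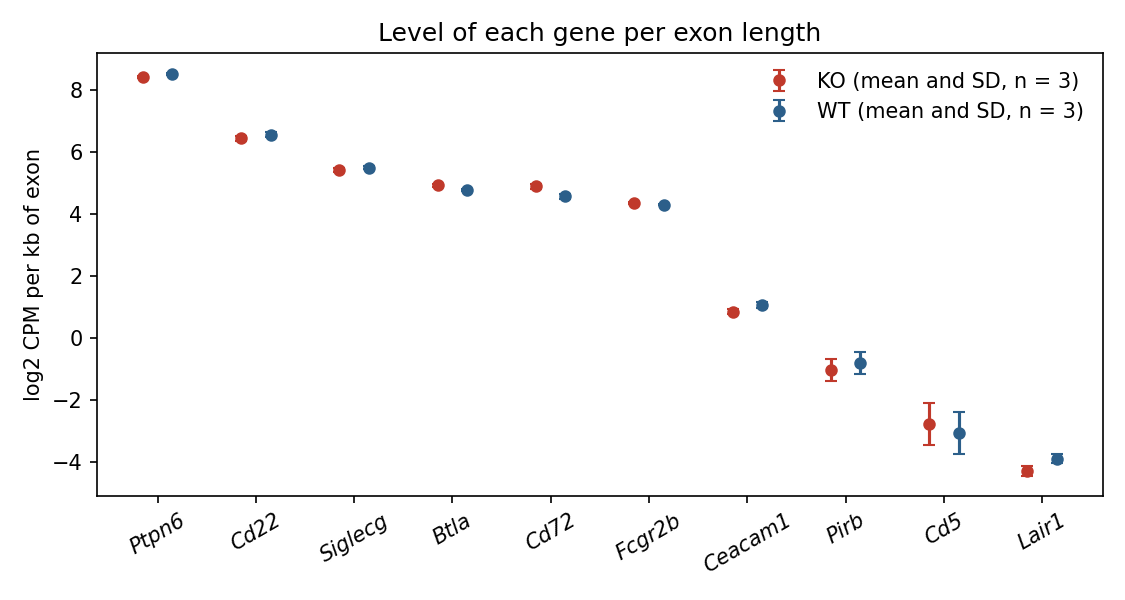
Mean level of each co-receptor gene in log2 CPM per kilobase of exon, KO left of WT at each gene, with SD over 3 libraries. The order from Ptpn6 down to Lair1 is the same in both groups, and Btla and Cd72 lie 0.035 apart in KO.

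The genes lie on 6 chromosomes, and 5 of the 10 are on chromosome 7. In build GRCm38 these are Pirb (3711409 to 3720391) and Lair1 (4003402 to 4063204), both on the minus strand, and Ceacam1 (25461707 to 25477603, minus), Cd22 (30865402 to 30880342, minus) and Siglecg (43408204 to 43418358, plus). All 5 had a lower mean in KO than in WT, by -0.07 to -0.40, and none of the 4 that were tested passed. Of all tested genes 48.6% were lower in KO. Ceacam1 and Lair1 were lower in every pair, while Pirb, Cd22 and Siglecg were each higher in KO in at least 1 pair. The others are Cd72 on chromosome 4 (given above), Fcgr2b on chromosome 1 (170958617 to 170976547), Ptpn6 on chromosome 6 (124720707 to 124738714), Btla on chromosome 16 (45224315 to 45257670) and Cd5 on chromosome 19 (10717116 to 10739002). Of these, Ptpn6 was the one with a lower mean in KO. Antisense genes share exonic bases with Cd22 (479), Ptpn6 (195) and Fcgr2b (155).

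Kinases, phosphatases and adaptors linked to ITIM signalling or to Src-family kinases were described through 21 genes, of which 19 were tested. Not all of them are recruited by ITIMs, and Ptprc, Ptprj and Sla are among those that are not. None passed 5% FDR in either direction by limma, and 1 had an unadjusted p under 0.05. By sign 14 were lower and 5 higher in KO, with a median difference of -0.08, beside 4925 lower and 5202 higher among all tested genes. Ptprj, a receptor phosphatase that acts on Src-family kinases, was at 4.08, 4.01 and 4.14 log2 CPM in KO, against 4.40, 4.47 and 4.34 in WT (-0.33 ± 0.13, limma adjusted p = 0.325). Its KO libraries were all lower than its WT libraries. Ptprc, which encodes CD45, differed by -0.12 ± 0.06, Dok3, an adaptor of inhibitory signalling, by -0.13 ± 0.17, and the adaptor Sla by -0.21 ± 0.18, with adjusted p of 0.595, 0.648 and 0.651.

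Among 29 genes of other inhibitory receptors and their relatives 11 were tested by limma. Of these 0 passed (2 at an unadjusted p under 0.05), with 9 lower and 2 higher in KO and a median of -0.13. The relatives, such as Fcrla, the highest gene of the list, Fcrlb, Siglec1 and Siglech, are not ITIM receptors. Pecam1, an ITIM adhesion receptor, was at 5.03, 4.98 and 5.06 log2 CPM in KO, against 5.28, 5.33 and 5.25 in WT (-0.27 ± 0.08, limma adjusted p = 0.318). The lectin gene Clec12a differed by -0.19 ± 0.12 (adjusted p = 0.522) and the SLAM family gene Slamf6 by -0.13 ± 0.14 (adjusted p = 0.696). All KO libraries of these 3 genes were below all WT libraries. Vsir, listed as 4632428N05Rik, differed by 0.79 ± 1.34 (adjusted p = 0.590), and its groups overlapped.

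Genes for the ligands of these receptors and for the making of sialic acid, the sugar that Siglecs bind, numbered 15, and all were tested. By limma none passed, and 1 had an unadjusted p under 0.05. Of the 15, 8 were higher and 7 lower in KO, with a median of 0.018. Neu3, a sialidase of the plasma membrane, was at 2.25, 2.36 and 2.55 log2 CPM in KO, against 1.98, 1.87 and 1.68 in WT (0.55 ± 0.30, limma adjusted p = 0.336). Tnfrsf14, which encodes the BTLA ligand HVEM, was at 0.65, 0.78 and 0.71 in KO, against 0.30, 0.17 and 0.23 in WT (0.48 ± 0.13, adjusted p = 0.751). Both were thus higher in every KO library than in any WT library. Cmas, which activates sialic acid for transfer, differed by -0.16 ± 0.27 (adjusted p = 0.655), and H2-K1, a classical MHC class I gene, by 0.10 ± 0.11 (adjusted p = 0.719).

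The antigen receptor and its proximal kinases and adaptors are what the co-receptors restrain. Of 14 genes, all tested, 11 were lower and 3 higher in KO (median -0.08), and by limma 0 passed, with 2 at an unadjusted p under 0.05. Cd79b, a signalling subunit of the receptor, was at 10.81, 10.82 and 10.86 log2 CPM in KO, against 10.99, 10.98 and 10.93 in WT (-0.14 ± 0.06, limma adjusted p = 0.369). Syk differed by -0.17 ± 0.24 (adjusted p = 0.434), Btk by -0.12 ± 0.10 (0.700) and Cd79a by -0.09 ± 0.02 (0.724). General B cell markers were also lower in KO by sign, 6 of the 6 tested (median -0.07), as were 7 of 9 germinal centre markers (median -0.10). None of these markers passed 5% FDR by limma (1 and 3 at an unadjusted p under 0.05), and their part in the list medians was not tested. Other marker lists were mixed: of naive B cell markers 5 of the 6 tested were higher in KO (median 0.04), and of plasma cell markers 2 of the 3 tested (median 0.05). Cd38 differed by 0.44 ± 0.35 (adjusted p = 0.168) and Prdm1, a regulator of plasma cell formation, by 0.93 ± 0.56 (adjusted p = 0.256), both with all KO above all WT. The highest gene of the naive list, Fcer2a, differed by 0.027 ± 0.35 (adjusted p = 0.982). That of the plasma cell list, Jchain (listed as Igj), was lower in KO, by -0.16 ± 0.20 (adjusted p = 0.331). Fcer2a and Jchain both overlapped between the groups. Of 4 nuclear RNAs 3 were tested and were lower in KO on average (median -0.42), but by pair their median was -0.50, -1.11 and 0.38. Neat1 had all KO below all WT (-0.64 ± 0.36, adjusted p = 0.428). None of these passed 5% FDR by limma (1, 2 and 1 at an unadjusted p under 0.05), and their part was likewise not tested. The lists were not tested against each other, and the median of the ITIM-linked list was -0.14 in pair 1, -0.04 in pair 2 and -0.03 in pair 3.

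**Figure D4:**
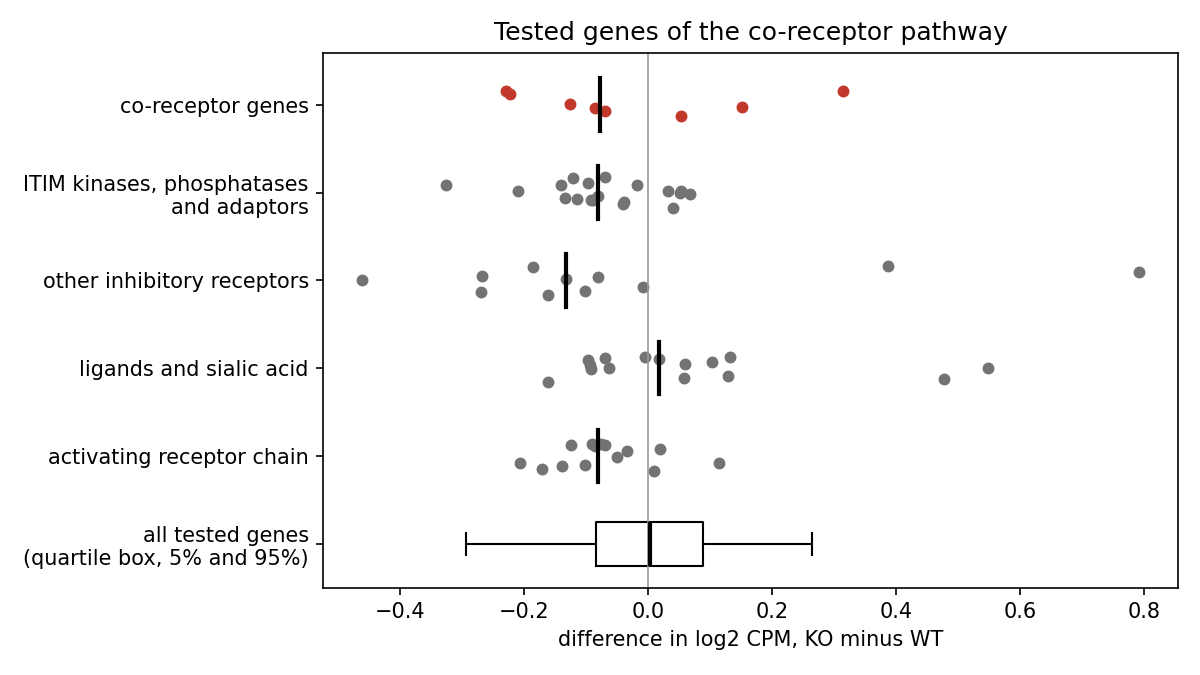
Difference in log2 CPM, KO minus WT, of each tested gene in the co-receptor list and in 4 lists of related genes, with a black line at each median; the box gives the quartiles of all 10133 tested genes and its whiskers the range from 5% to 95%. Most genes of the ITIM-linked list, of the other inhibitory receptors with their relatives and of the activating receptor chain lie slightly below 0. Their medians are -0.08, -0.13 and -0.08.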

How the data were processed

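Messenger RNA of 3 KO and 3 WT libraries, grouped by the genotype in the labels, was measured by RNA sequencing. The submitters' processing notes name STAR 2.6.1a, Trim Galore 0.6.5, FastQC 0.11.7, featureCounts (Subread 2.0.1), limma and the build mm10, with no settings or order. The deposited values were taken as log2 CPM, since on the linear scale each library sums to nearly the same CPM total; the read depth is unknown. The equal sums over replicate numbers were found in the values.

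The comparison of KO with WT used limma 3.58.1 (R 4.3.3) with terms for genotype and replicate number (variance trend, robust moderation, two-sided), with Benjamini-Hochberg adjustment over all 10133 genes that averaged 1 CPM or more and were not constant. The replicate number stayed in as a block because its effect was already removed from the values, which also means that no correlation can show whether the numbers pair the libraries. For most genes the moderation took the variance largely from the trend over all genes (median prior degrees of freedom 81.2). A gene's own 3 pairs thus had little weight in its p-value and interval. With 3 pairs, the smallest p of an exact two-sided sign-flip test is 0.25. The fit was also run on simulated data whose noise followed the trend over genes exactly. That run therefore cannot test how far the calls rely on the trend.

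The co-receptor genes, the lists and the motifs were chosen with earlier results of these data known. Named were all 10 co-receptor genes, Basp1, and from each related list the genes past 5% FDR and the 4 with the smallest p; marker genes and genes that share bases or reads were named for their relation. Older symbols were matched through RefSeq synonyms. For Siglecf, in the list of other inhibitory receptors, the listed name Siglec5 belongs to 2 genes in the RefSeq table. Alternatives were other filters, moderation, scaling, a pseudocount of 1 CPM, no block, and leaving out each pair.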

Additional observations from a re-analysis of the deposited data

How the results depend on the processing

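The number of genes past 5% FDR was 27, and it was 142 with no replicate block, 0 with no variance trend, 12 with non-robust moderation, 95 with no filter on low values, and 11 to 136 with 1 pair left out. With no replicate block 5 co-receptor genes had an unadjusted p under 0.05 and 0 passed 5% FDR by limma. With no variance trend 1 of the co-receptor genes, Cd72, had an unadjusted p under 0.05. Co-receptor genes past 5% FDR numbered 0, and 1 (Cd72) with no filter on low values; with 1 pair left out there were 0 to 1, the 1 being Cd72 without pair 3. The median difference of the tested co-receptor genes was -0.08, and -0.127 to 0.0305 with 1 pair left out; it was above 0 without pair 1. For the single genes, 76 of 79 recomputed differences kept their direction and side of the threshold. Dropping the block, other moderation and other filters leave a gene's difference unchanged by construction. Under those settings only the side of the threshold could change. Cd72 passed in 2, and Pirb, at -0.23, ran from -0.47 to 0.17 with 1 pair left out, the last without replicate 1. The cause of these shifts was not tested. The pairs themselves limit the precision, and the unknown depth limits it for Pirb, Cd5 and Lair1, which lie at or under 2.59 CPM in both group means.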
